A study of Bos taurus with 12 samples.

Results

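The solute carrier genes of the bovine endometrium are described here, as measured on a 1-colour Agilent array. They were chosen by name: a non-control probe counted when the array's annotation called it a member of a solute carrier family, or when its gene name began with SLC and a digit. Of 15208 non-control probes, 134 met this rule, for 127 genes. Kept were the probes that, in 1 group or more, stood well above background on each of the 3 arrays, and the brightest probe stood for the gene. That left 105 genes out of 127, and 96 of the 105 were well above background on all 12 arrays. The same filter kept 12404 probes of the whole array.

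Endometrium of Japanese-Black cows was biopsied at cycle day 15, in early September (summer) and in mid-November (autumn) of a pair of consecutive years. Both uterine horns were sampled, the one beside the ovary bearing the corpus luteum (CL), which secretes progesterone, and the one opposite. The 4 groups were CL side in summer, non-CL side in summer, CL side in autumn and non-CL side in autumn, each with 3 arrays labelled from 400 ng of total RNA. The labels name no treatment, give no age and do not say that the replicates of a group were separate animals, so the p-values measure the spread between these samples only, which may be technical.

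Solute carriers are membrane proteins that move small molecules across the plasma membrane or the membranes of organelles. Some let their substrate run down its gradient, and others couple it to the flow of sodium, protons or chloride, or exchange one solute for another. In the uterus of ruminants, transporters in the luminal and glandular epithelium carry glucose, amino acids, ions and vitamins into the uterine fluid, which nourishes the conceptus before it attaches.

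The array reads each gene through a probe of 60 bases. The probes of 4 genes are printed because these genes are described in most detail below. Each is given 5′ to 3′ in lower case as the deposited array files hold it, and none of the 4 contains the polyadenylation motifs AATAAA or ATTAAA.
SLC6A14: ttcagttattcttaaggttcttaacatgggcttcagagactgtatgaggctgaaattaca
SLC26A4: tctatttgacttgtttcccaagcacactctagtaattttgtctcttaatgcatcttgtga
SLC4A4: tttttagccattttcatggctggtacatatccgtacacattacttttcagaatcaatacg
SLC43A3: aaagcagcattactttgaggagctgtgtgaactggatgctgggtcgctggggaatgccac

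Each of these probes holds at least 1 forward reading frame without a stop codon, as did 84 of the 105 solute carrier probes (80.0%) and 79.9% of all kept probes. Searched on the printed strand, AATAAA or ATTAAA occurred in 26 of the 105 probes (24.8%), against 16.2% of all kept probes. The median GC content was 45% for the 105 probes and 43.3% for all kept probes. Among the genes that matched the rule, a single pair were next to each other in the reference gene order, SLC38A2 and SLC38A1.

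Levels below are log2 values of a probe's signal over the 75th percentile of its array, so a level of 0 equals that percentile and −7.28 is the floor of measurement. Levels of different probes are not set against each other. Of the 105 genes, 10 had at least 1 value at the floor, 24 values in all, and none was saturated. SLC7A5 had a missing value on 1 non-CL-side summer array and on 1 CL-side autumn array because the spots carried an outlier flag.

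A single array stood apart in brightness and in its correlation with the others. Replicate 2 of the CL side in summer had a 75th percentile of 2007 signal units, against 3516 to 4418 on the other 11 arrays, and its median correlation with them was 0.928, against at least 0.979 for every other array. It held the highest or the lowest of the 12 values for 56.7% of the 104 solute carrier genes measured on every array, close to its share over all kept probes (58.0%). Its mean score for 18 epithelial markers was 1.08, against −0.39 to 0.15 elsewhere, and its score for 14 stromal markers was −1.16, against −0.42 to 0.76 elsewhere. In such bulk samples, fewer cells of a type and less RNA per cell cannot be told apart. On the CL side 16 of 18 epithelial markers were higher in summer, 5 of them at an unadjusted p under 0.05, and 13 of 14 stromal markers were lower, 9 of them at that p. Higher at that p were also 5 of 13 markers of T and NK cells, 3 of 8 of ciliated epithelium, 3 of 5 of squamous epithelium and 4 of 5 of granulocytes, and none of the markers of smooth muscle, endothelium, macrophages, B and plasma cells or red blood cells differed at it. Of all probes, 6.37% were higher and 3.55% lower at that p. Without the dim array, 1 epithelial, 2 T and NK cell, 1 ciliated, 2 squamous and 1 granulocyte marker were higher at it and 7 stromal markers lower, against 3.42% of all probes higher and 2.06% lower. Scores of granulocyte markers were 0.95, 2.20 and 0.98 on the CL side in summer, against −1.48 to 0.32 on the other 9 arrays. The part of these shifts in the results below was not tested, and differences of single genes that turn on the dim array are given with and without it. Replicate 1 of the CL side in autumn held the most faint signals. It had 2092 signals at or below 0, against 802 to 1329 on the other 11 arrays. At the floor were 5.11% of its kept values, against 0.71% to 2.85% elsewhere. This array is part of every CL-side season difference of faint genes below.

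**Figure D1:**
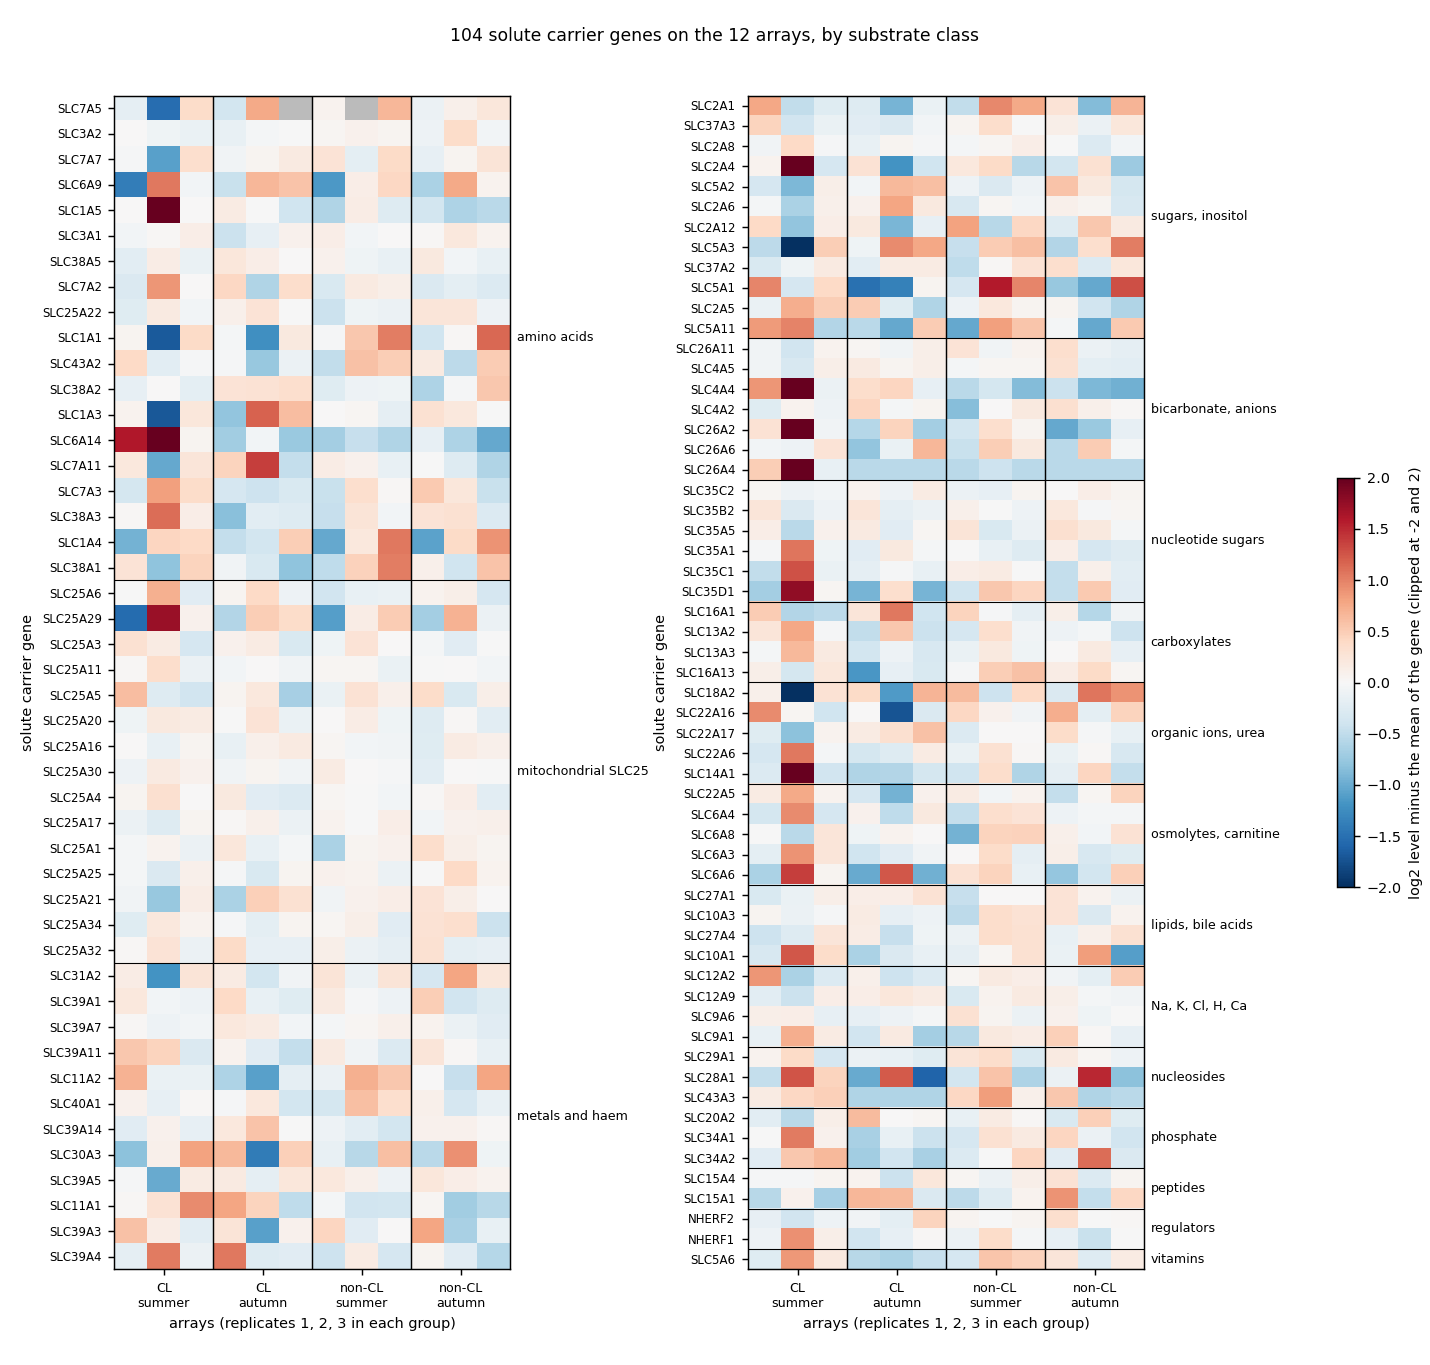
Log2 level of 104 of the 105 genes (rows, by substrate class) on each of the 12 arrays (columns, 3 per group), as the difference from the mean of the gene over the arrays, clipped at −2 and 2, with missing values in grey. The second column, the dim CL-side summer array, holds many of the deepest colours in both directions.

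Over the 12 arrays the genes differed widely in how steady they were. The range of a gene from its lowest to its highest array had a median of 1.40 log2 units, against 1.08 over all kept probes, and without the dim array these medians were 1.01 and 0.82. The range stayed under 1 in 36 of the 105 genes, against 5627 of the 12404 kept probes. Without the dim array it stayed under 1 in 51 genes (48.6%), against 61.8% of all kept probes. SLC35C2, a Golgi and endoplasmic reticulum sugar-nucleotide family member, spanned 0.34. SLC25A30 and SLC25A17, both carriers of the mitochondrial family (the second is peroxisomal), spanned 0.39 and 0.40, and SLC38A5, a glutamine and glycine transporter, spanned 0.44. Of the 15 genes classed as other mitochondrial carriers, 11 spanned less than 1. At the other end, 3 genes spanned 4 or more, against 267 of the 12404 kept probes: SLC26A4 with 4.94, SLC6A14 with 4.42 and SLC5A3 with 4.07. The dim array set 1 end of all 3 ranges, as the highest array for SLC26A4 and SLC6A14 and the lowest for SLC5A3.

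The first comparison set summer against autumn on the CL side. No solute carrier gene passed an adjusted p of 0.05 in limma, and neither did any of the 12381 probes tested (0.0%). The smallest adjusted p of a member was 0.496. At an unadjusted p under 0.05, 9 of 105 genes were higher in summer (8.57%), against 6.37% of all probes, and 3 were lower (2.86%), against 3.55%. All 3 summer arrays lay above all 3 autumn arrays for 9 genes (background 8.05%) and below them for 4 genes (background 5.11%). These shares are near the background. Without the dim array 4 genes were higher and 2 lower at an unadjusted p under 0.05, against 3.42% and 2.06% of all probes. With replicate numbers as a block across the seasons, 14 were higher and 3 lower at that p, against 8.79% and 4.15% of all probes. In a simulation with independent errors of each probe's own spread, a log2 change of 1 was called for 32% of the changed probes and a change of 2 for 81%. It held no shift shared by the probes of an array, no slides, no pairing and no floor. These shares therefore do not tell how often real changes would be called here.

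The widest gap was that of SLC6A14, a broad sodium- and chloride-coupled transporter of neutral and basic amino acids. Its levels were −2.04, −0.24 and −3.59 on the CL side in summer, against −4.33, −3.69 and −4.39 on the CL side in autumn. The non-CL side had −4.32, −4.10 and −4.25 in summer and −3.80, −4.26 and −4.66 in autumn. All 3 CL-side summer arrays thus lay above the other 9. The season difference on the CL side was 2.18 ± 0.64 (SE), a 4.52-fold higher signal in summer, with an unadjusted p of 0.00652 and an adjusted p of 0.496 in limma. Without the dim array, which held the highest value, the difference was 1.32 ± 0.42, or 2.50-fold. It was 1.89 in the authors' own table of log2 values.

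SLC26A4 encodes pendrin, an exchanger of chloride for bicarbonate and iodide. Its levels were −6.25, −2.33 and −6.89 on the CL side in summer, while all 3 CL-side autumn arrays were at the floor and none was well above background. The CL-side summer signal was at least 4.34-fold higher than in autumn, and at least 1.63-fold without the dim array. The SLC26A4 probe passed the filter only through the CL side in summer, so its difference had to run in this direction and is a description, though the gene is counted among the 9. Of the 105 genes, SLC5A11 was the only other one kept through that group alone. Across the non-CL arrays of SLC26A4, 1 summer array was above the floor, at −7.14, and the other 5 arrays lay at it. The gene was thus above the floor mainly on the CL side in summer, and its size there turned on 1 array.

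SLC43A3, a facilitative transporter of purine nucleobases, did not rest on the dim array. Its levels were −6.51, −6.26 and −6.19 on the CL side in summer, and all 3 CL-side autumn arrays were at the floor and not well above background, while the probe passed the filter in each of the other 3 groups. The summer signal was at least 1.94-fold higher (unadjusted p = 0.0079, adjusted p = 0.496 in limma). The 3 autumn values all equal the floor, so this p-value holds no measure of the spread of that group. With an alternative background correction the log2 difference was 0.44 (unadjusted p = 0.065 in limma). The other horn had levels of −6.27, −5.84 and −6.58 in summer and −6.14, −7.28 and −7.22 in autumn, which overlapped. In the authors' table of log2 values the CL-side difference was −0.11.

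The 6 other genes that were higher at an unadjusted p under 0.05 were SLC5A6, SLC34A2, SLC34A1, SLC38A3, SLC13A3 and SLC22A5. SLC5A6, which takes up biotin and pantothenate with sodium, had levels of −5.75, −4.65 and −5.32 in summer against −6.08, −6.15 and −5.99 in autumn, a difference of 0.83 ± 0.30. SLC34A2, an epithelial sodium-phosphate cotransporter, had −6.35, −5.58 and −5.47 against −6.81, −6.49 and −6.77, a difference of 0.89 ± 0.38. In both, the groups did not overlap.
SLC34A1, another sodium-phosphate cotransporter, differed by 0.78 ± 0.31. SLC38A3, a glutamine transporter, differed by 0.85 ± 0.32. SLC13A3, a sodium-coupled dicarboxylate transporter, differed by 0.53 ± 0.19. These 3 genes also showed no overlap between the seasons. SLC22A5, the high-affinity carnitine transporter, had levels of 0.23, 0.82 and 0.15 in summer against −0.26, −0.86 and 0.17 in autumn, a difference of 0.72 ± 0.30 with an overlap of 1 array, or 0.45 without CL-side autumn replicate 2.

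In 7 of these 9 genes the dim array was the highest of the 3 summer arrays, and without it 3 of the 9 kept an unadjusted p under 0.05: SLC6A14, SLC43A3 and SLC26A4. The differences of the genes that lost it were then 0.53 for SLC5A6, 0.78 for SLC34A2, 0.45 for SLC34A1, 0.51 for SLC38A3, 0.33 for SLC13A3 and 0.51 for SLC22A5. In the authors' table of log2 values, 4 of the same genes sat near 0 with the sign turned, at −0.02 for SLC34A1, −0.03 for SLC34A2, −0.04 for SLC38A3 and −0.01 for SLC13A3, and SLC5A6 was at 0.06. SLC22A5 kept 0.72.

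The 3 genes that were lower in summer on the CL side at an unadjusted p under 0.05 were SLC22A17, SLC5A2 and SLC2A6. SLC22A17, a receptor for the iron-siderophore carrier lipocalin 2, had levels of −2.44, −3.02 and −2.12 in summer against −2.03, −1.88 and −1.61 in autumn. The groups did not overlap, and the difference was −0.69 ± 0.24 (unadjusted p = 0.0146, adjusted p = 0.496 in limma). SLC5A2, a sodium-glucose cotransporter, had −3.19, −3.74 and −2.73 against −2.89, −2.20 and −2.25, a difference of −0.77 ± 0.30. SLC2A6, a lysosomal facilitative glucose transporter family member, differed by −0.55 ± 0.24.
The dim array was the lowest summer array in all 3 genes. Without it the differences were −0.44 for SLC22A17, −0.51 for SLC5A2 and −0.33 for SLC2A6, and none of the 3 kept an unadjusted p under 0.05. Leaving out CL-side autumn replicate 2 instead also gave −0.33 for SLC2A6. The authors' table of log2 values gave −0.67 for SLC22A17, −0.70 for SLC5A2 and −0.48 for SLC2A6.

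**Figure D2:**
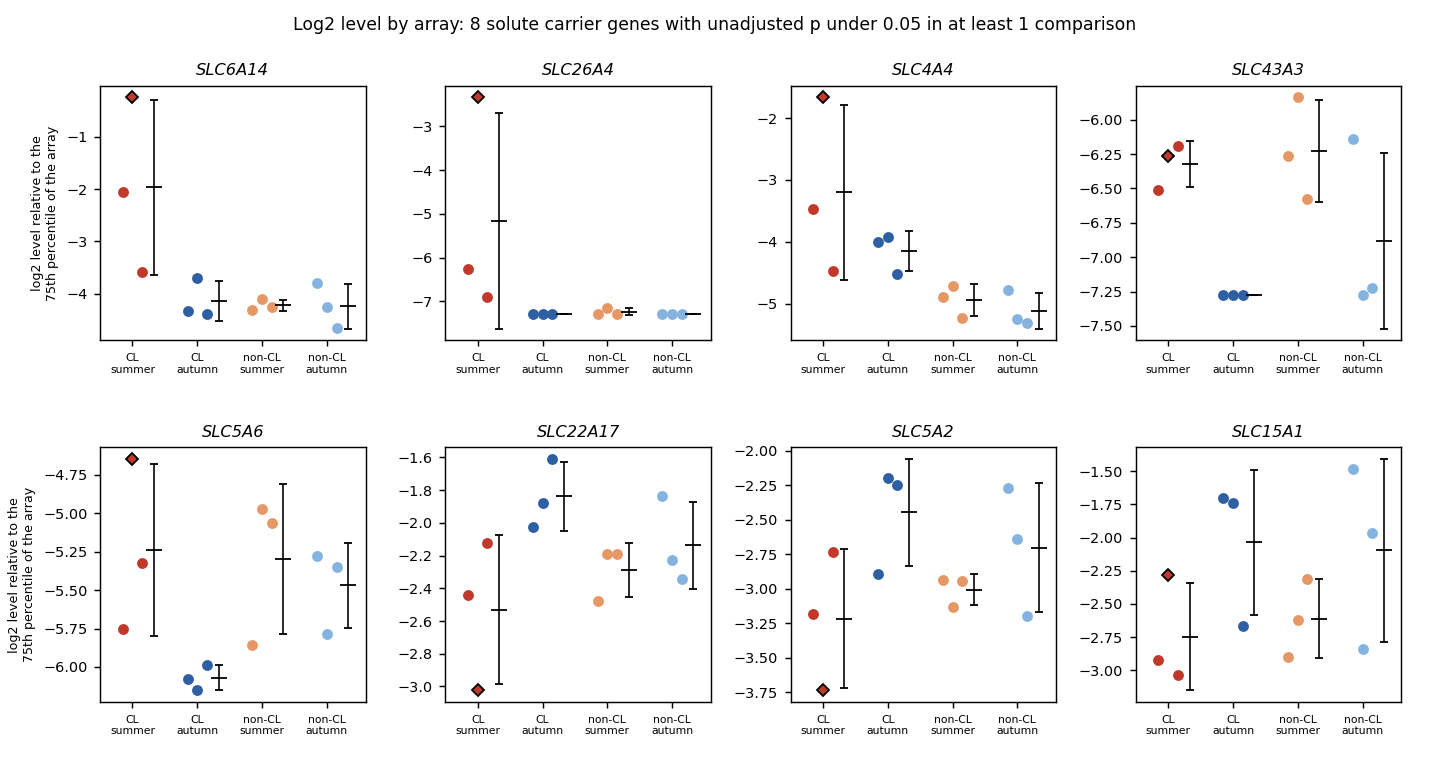
Log2 level (vertical axis, relative to the 75th percentile of the array) of 8 genes on the 12 arrays by group, with a bar for the mean and SD of each group (n = 3) and a black-edged diamond for the dim CL-side summer array. SLC6A14 and SLC26A4 stand highest on the CL side in summer, SLC43A3 lies at the floor on all 3 CL-side autumn arrays, and the diamond is the highest or lowest CL-side summer point in most panels.

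The slides of the arrays were not balanced over the seasons. Slide 1 held all 6 summer arrays and replicate 1 of both autumn groups, and slide 2 held the other 4 autumn arrays. With the slide as a block the CL-side difference was 2.05 for SLC6A14, 0.59 for SLC43A3, −0.75 for SLC22A17 and −0.76 for SLC5A2. That of SLC43A3 then had an unadjusted p of 0.0917 in limma. On slide 1 alone, where CL-side autumn had 1 array, SLC6A14 was at 2.37, SLC43A3 at 0.95, SLC22A17 at −0.50 and SLC5A2 at −0.32. SLC26A4 was at 2.12 in both.

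The direction of the season difference followed the level of the probe, a split made after the values were seen. Of the 27 solute carrier genes with a mean level below −5, the CL side gave 26 with higher summer levels and a median of 0.54. SLC26A4 is counted among the 26. This gene and SLC5A11 passed the filter only through the CL side in summer, so their direction there follows from the filter. Of all kept probes at that level, 70.6% were higher, with a median of 0.32. Of the 78 solute carrier genes at −5 or above, 40 were higher, with a median of 0.00. In the authors' table of log2 values, only 5 of the 27 were higher in summer, with a median of −0.06, and 14% of all kept probes at that level were. Of the 78 brighter genes, 39 were higher there.
Over all 105 genes, 66 lay above 0 (62.9%), against 53.0% of all probes. The median log2 difference was 0.09, against 0.02 over all probes, and it was −0.03 in the authors' table.

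**Figure D3:**
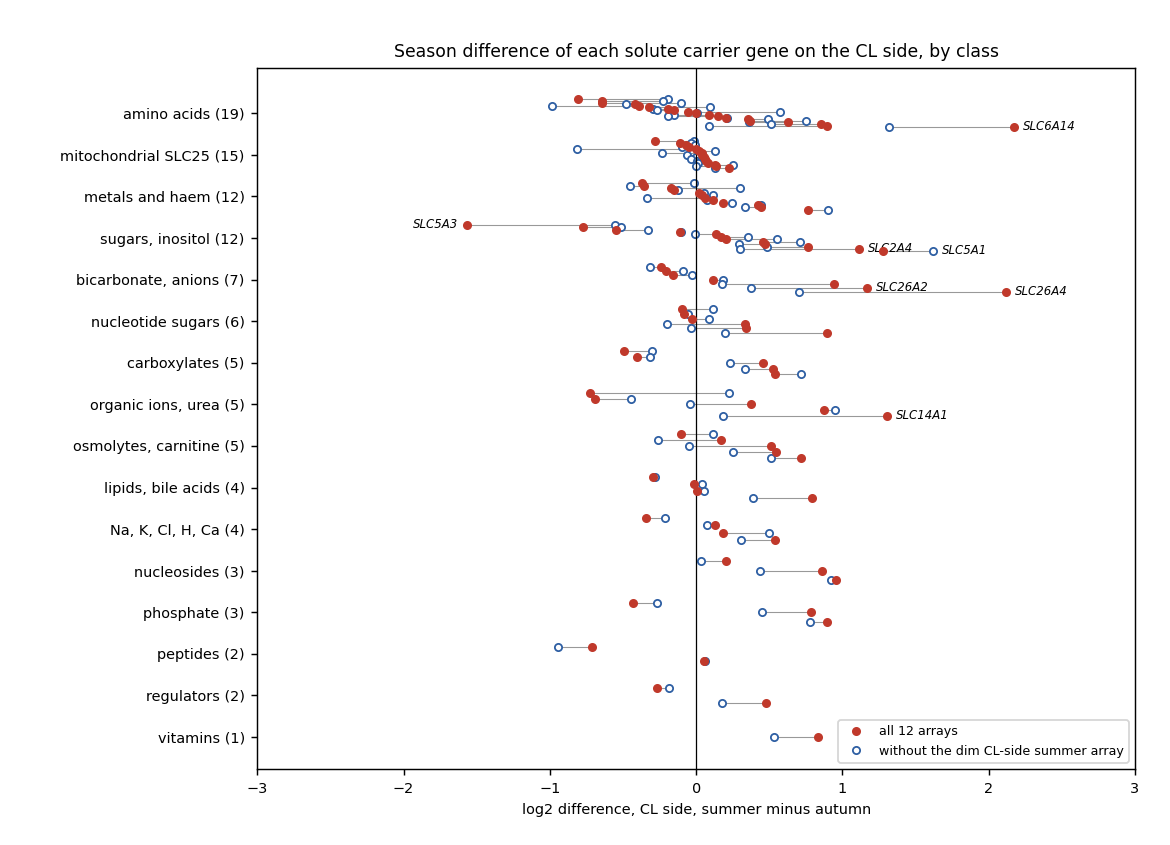
Log2 difference between summer and autumn on the CL side (horizontal axis) for each of the 105 genes, by substrate class (number of genes in brackets), with all 12 arrays (filled red) and without the dim CL-side summer array (open blue). Most long lines run toward 0 when that array is left out, as for SLC5A3 and SLC14A1, while the filled points of the mitochondrial carriers stay between −0.28 and 0.22.

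Sugar transporters are the first class by role. Of 14 genes that matched the rule, 12 were kept; SLC2A2 and SLC2A3, both facilitative glucose transporters, were well above background on none of the 12 arrays. On the CL side 8 of the 12 were higher in summer (53.0% of all probes) and 4 lower, with a median of 0.19. At an unadjusted p under 0.05, 2 were lower, against 3.55% of all probes. SLC5A11, counted among the 8, passed the filter only through the CL side in summer, so its direction there follows from the filter. On the non-CL side 8 of the 12 were higher (49.9% of all probes) and 4 lower, with a median of 0.12 and none at that p.
SLC2A1, the main facilitative glucose transporter of many cells, had levels of 3.20, 1.93 and 2.18 on the CL side in summer against 2.16, 1.48 and 2.29 in autumn. The opposite horn had 1.92, 3.38 and 3.17 in summer against 2.69, 1.55 and 3.10 in autumn. The groups overlapped on both sides, with season differences of 0.46 ± 0.50 on the CL side and 0.38 ± 0.50 on the non-CL side. The first was 0.08 without CL-side summer replicate 1, 0.21 without CL-side autumn replicate 2 and 0.71 without the dim array. The second was −0.07 without non-CL-side autumn replicate 2 and 0.83 without non-CL-side summer replicate 1.
SLC5A1, the sodium-coupled glucose and galactose transporter, had −4.26, −5.57 and −4.84 on the CL side in summer against −6.73, −6.60 and −5.19 in autumn. The opposite side had −5.58, −3.65 and −4.26 in summer against −6.01, −6.27 and −3.95 in autumn. It averaged 2.14-fold higher in summer over both sides (SE of the log2 difference 0.50, unadjusted p = 0.0676, adjusted p = 0.895 in limma), and 1 autumn array on each side lay within the summer range. The dim array was the lowest CL-side summer array here, and the difference without it was 1.42. The authors' table of log2 values gave 0.41. A second probe of the gene, with a mean level of −7.28, the floor, failed the filter, so these values rest on the brighter probe alone.

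SLC2A4, the insulin-responsive glucose transporter, had levels of −1.39, 0.86 and −1.79 on the CL side in summer against −1.17, −2.65 and −1.84 in autumn. Its difference of 1.11 ± 0.64 became 0.30 without the dim array and 0.73 without CL-side autumn replicate 2. SLC2A8, an intracellular glucose transporter, averaged −0.23 ± 0.26 on the CL side in summer and −0.37 ± 0.10 in autumn (SD, n = 3 each), and all 12 arrays lay within 0.66. SLC5A3, which takes up the osmolyte myo-inositol with sodium, had −4.76, −7.28 and −3.74 on the CL side in summer against −4.32, −3.30 and −3.47 in autumn. The value at the floor was that of the dim array, and the difference of −1.56 ± 0.78 was −0.56 without it. SLC5A11, the other inositol transporter of the class, was at the floor on 3 of 12 arrays.
SLC37A3, of the sugar-phosphate exchanger family, averaged 0.92 ± 0.42 on the CL side in summer and 0.75 ± 0.12 in autumn. SLC2A12 averaged −4.22 ± 0.62 and −4.43 ± 0.56 in the same groups. SLC2A5, the fructose transporter, gave 0.36 ± 0.31 for season on the non-CL side, and this turned to −0.13 with the slide as a block and to −0.01 on slide 1 alone.

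**Figure D4:**
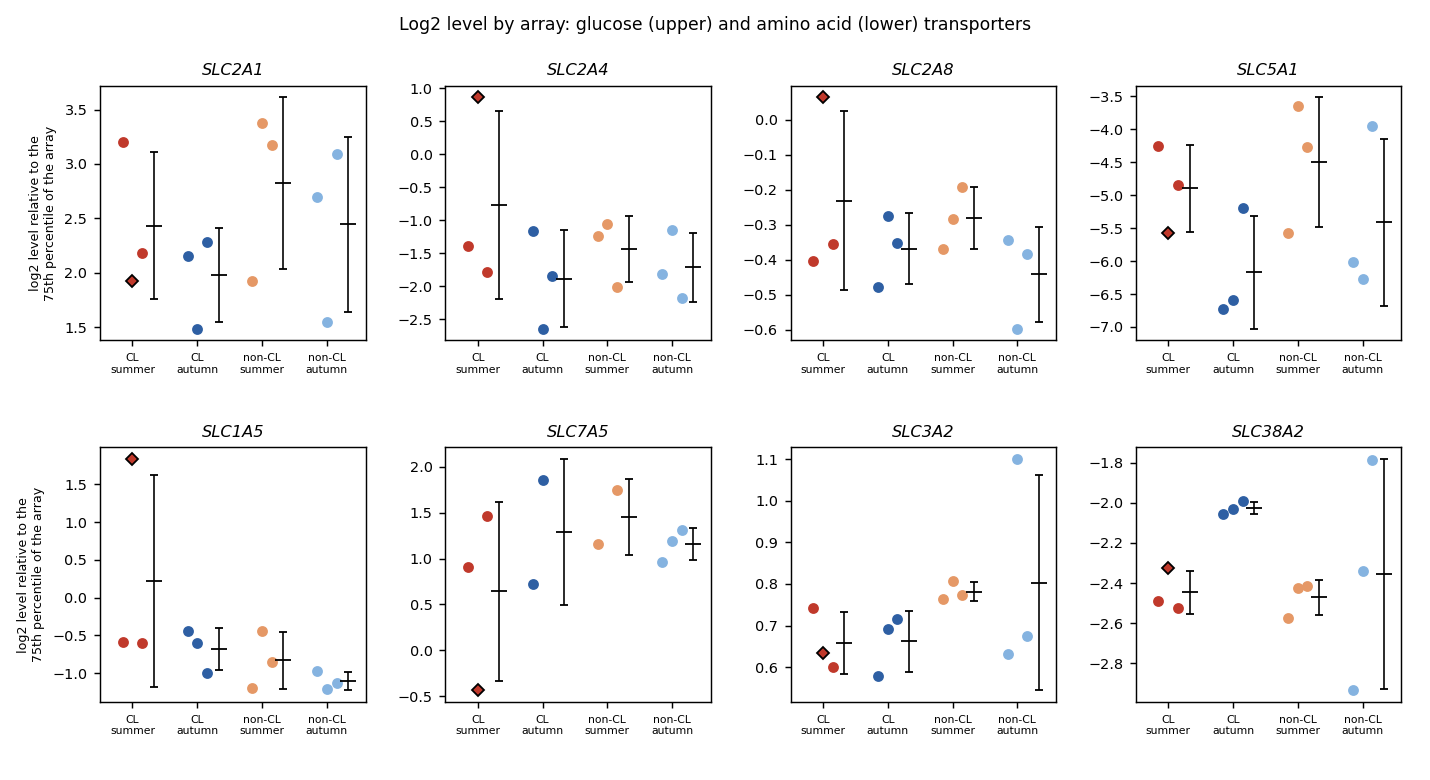
Log2 level (vertical axis, relative to the 75th percentile of the array) of 4 glucose transporters (upper row) and 4 amino acid transporters (lower row) on the 12 arrays by group, with mean and SD (n = 3, fewer where a spot was missing) and a black-edged diamond for the dim CL-side summer array. On the CL side the seasons overlap in every panel except SLC38A2, whose 3 summer arrays lie below the 3 autumn arrays, and in SLC2A4, SLC1A5 and SLC7A5 the diamond lies far from its group.

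Amino acid transporters formed the largest class, with 19 genes of 22 kept. On the CL side 9 were higher (53.0% of all probes) and 10 lower in summer, and the median difference was close to 0. On the non-CL side 10 were higher (49.9% of all probes) and 9 lower, with a median of 0.01. Neither direction prevailed in the class as a whole.
SLC7A5 and SLC3A2 are the light and heavy chains of a large neutral amino acid exchanger. SLC3A2 was steady, with a mean of 0.66 ± 0.07 on the CL side in summer, 0.78 ± 0.02 on the non-CL side in summer, 0.66 ± 0.07 on the CL side in autumn and 0.80 ± 0.26 on the non-CL side in autumn. SLC7A5 had 0.91, −0.44 and 1.46 on the CL side in summer against 0.72 and 1.85 on the 2 measured arrays of the CL side in autumn. The low value was again that of the dim array.
SLC7A7, a light chain for basic and neutral amino acids, had −0.03, −1.09 and 0.33 on the CL side in summer against −0.07, 0.06 and 0.19 in autumn. SLC1A5, a sodium-dependent exchanger that takes up glutamine, had −0.59, 1.83 and −0.60 on the CL side in summer against −0.44, −0.61 and −0.99 in autumn. Its difference of 0.90 ± 0.54 was 0.09 without the dim array.
SLC1A1, a high-affinity glutamate and aspartate transporter, had −1.97, −3.71 and −1.63 on the CL side in summer against −2.05, −3.24 and −1.83 in autumn. In both groups replicate 2 was the low array.
SLC38A2, a sodium-coupled small neutral amino acid transporter, had −2.49, −2.32 and −2.52 on the CL side in summer against −2.05, −2.03 and −1.99 in autumn. The groups did not overlap, but the difference of −0.42 ± 0.24 had an unadjusted p of 0.104 and was −0.12 with the slide as a block.
The neighbouring gene SLC38A1 was at the floor on 2 arrays and averaged −6.50 ± 0.68 in summer and −6.87 ± 0.37 in autumn on the CL side. SLC7A2, a transporter of arginine and lysine, averaged −1.43 ± 0.61 and −1.58 ± 0.57. SLC43A2, a facilitative transporter of branched-chain amino acids, had −1.67, −2.27 and −2.07 in summer against −2.09, −2.81 and −2.18 in autumn. SLC3A1, the heavy chain of the cystine transporter, averaged −0.95 ± 0.09 and −1.16 ± 0.26. SLC1A4, an exchanger of alanine, serine and cysteine, averaged −6.24 ± 0.78 and −6.33 ± 0.54. The seasons overlapped in all 5 of these genes.

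The bicarbonate and anion carriers kept 7 of 10 genes, among them SLC26A4 and SLC4A4, whose values by side are given further on. SLC26A2, a sulfate transporter, had levels of −4.83, −2.62 and −5.20 on the CL side in summer against −5.69, −4.68 and −5.79 in autumn. Over both sides its season difference was 0.91 ± 0.42 (unadjusted p = 0.0703), and without the dim array it was 0.55 with an unadjusted p of 0.0306. SLC26A11 averaged 1.76 ± 0.23 on the CL side in summer and 1.91 ± 0.09 in autumn. SLC4A5, another sodium-bicarbonate cotransporter, averaged −2.86 ± 0.22 and −2.66 ± 0.06. Its second, fainter probe went the other way, with a CL-side season difference of 0.42 ± 0.29 (SE). SLC4A2, an exchanger of chloride for bicarbonate, gave −0.37 ± 0.25 for season on the non-CL side, which was −0.05 without non-CL-side summer replicate 1 and −0.57 without replicate 3 of that group.

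Of the exchangers of sodium, potassium, chloride and protons, 4 of 7 were kept. SLC12A2, the sodium-potassium-chloride cotransporter of secretory epithelia, had 1.89, 0.37 and 0.73 on the CL side in summer against 1.11, 0.59 and 0.73 in autumn, which overlapped. SLC12A9 averaged −0.91 ± 0.29 and −0.57 ± 0.05 in the same groups.

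Metal transporters kept 12 of 13 genes, and on the CL side 8 were higher (53.0% of all probes) and 4 lower in summer, with a median of 0.05. SLC39A14, which imports zinc and non-transferrin iron, was the member of this class with the lowest unadjusted p over both sides. Its levels were −2.55, −2.24 and −2.50 on the CL side in summer against −2.12, −1.76 and −2.34 in autumn. The non-CL arrays had −2.43, −2.54 and −2.69 in summer and −2.24, −2.25 and −2.31 in autumn, which did not overlap. The difference over both sides was −0.32 ± 0.14 (unadjusted p = 0.0594, adjusted p = 0.895 in limma), and it ranged from −0.40 to −0.24 when any 1 array was left out. A second probe of the gene gave −0.47 ± 0.17 on the CL side, in the same direction as the first (−0.36 ± 0.17), which was −0.20 without CL-side autumn replicate 2.
SLC11A2, the proton-coupled iron importer, had 1.24, 0.42 and 0.41 on the CL side in summer against −0.06, −0.53 and 0.37 in autumn. The groups did not overlap, and the difference was 0.77 ± 0.38 (unadjusted p = 0.0685), or 0.49 without CL-side summer replicate 1. SLC40A1, the iron exporter ferroportin, averaged −2.20 ± 0.13 and −2.24 ± 0.29 in those groups. SLC39A1, a zinc importer, averaged 2.07 ± 0.17 and 2.05 ± 0.35, and SLC31A2, of the copper transporter family, averaged 1.82 ± 0.81 and 1.99 ± 0.27. SLC39A4, the zinc importer of the intestinal epithelium, averaged −5.79 ± 0.68 and −5.85 ± 0.75.

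Of the peptide transporters, SLC15A1 takes up dipeptides and tripeptides with protons. It had −2.92, −2.28 and −3.04 on the CL side in summer against −1.70, −1.74 and −2.66 in autumn. The non-CL arrays had −2.90, −2.62 and −2.31 in summer against −1.48, −2.84 and −1.97 in autumn. The difference over both sides was −0.61 ± 0.24 (unadjusted p = 0.0407, adjusted p = 0.895 in limma), and it was −0.67 without the dim array and −1.09 with the slide as a block. SLC15A4, a lysosomal histidine and peptide transporter, averaged 1.73 ± 0.05 and 1.68 ± 0.35 on the CL side in summer and autumn.

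Carriers of carboxylates kept 5 of 7 genes. SLC16A1, the proton-coupled lactate transporter, averaged −3.86 ± 0.61 on the CL side in summer and −3.36 ± 0.73 in autumn (SD, n = 3 each). Among carriers of lipids and bile acids, SLC27A1, a fatty acid transport protein, had −0.01, 0.15 and 0.40 on the CL side in summer against 0.42, 0.42 and 0.58 in autumn, a difference of −0.29 ± 0.18. Its groups did not overlap, though the nearest arrays of the seasons almost met. SLC10A3 averaged −3.81 ± 0.09 and −3.82 ± 0.17.

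All 15 of the other mitochondrial carriers were kept, and their CL-side season differences lay between −0.28 and 0.22, or between −0.82 (SLC25A29) and 0.25 without the dim array. SLC25A6, an exchanger of ADP for ATP, averaged 5.27 ± 0.49 on the CL side in summer and 5.23 ± 0.26 in autumn. SLC25A29, a carrier of basic amino acids, varied more between arrays, with 0.20, 3.47 and 1.83 on the CL side in summer against 1.16, 2.24 and 2.10 in autumn. SLC25A25 had probes that disagreed: its brighter probe averaged −2.14 ± 0.20 in summer and −2.16 ± 0.19 in autumn on the CL side, while the second probe gave a difference of 1.24 ± 0.57.
The 6 nucleotide sugar carriers, which feed glycosylation in the Golgi, were evenly split on the CL side, with 3 higher (53.0% of all probes) and 3 lower. SLC35B2, the carrier of the sulfate donor PAPS, averaged 1.45 ± 0.26 in summer and 1.48 ± 0.23 in autumn.

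Of the remaining classes, SLC29A1, the equilibrative nucleoside transporter, averaged 0.02 ± 0.36 on the CL side in summer and −0.19 ± 0.07 in autumn, and SLC28A1, which takes up pyrimidine nucleosides with sodium, averaged −4.29 ± 0.87 and −5.16 ± 1.49. SLC20A2, a sodium-phosphate cotransporter, averaged −1.40 ± 0.33 and −0.96 ± 0.35. SLC18A2, which loads monoamines into vesicles, had 0.51, −2.24 and 0.70 against 0.79, −0.73 and 1.08, with replicate 2 the low array in both groups. SLC6A4, the serotonin transporter, averaged −4.94 ± 0.74 and −5.11 ± 0.38. SLC6A6, which takes up taurine, averaged −6.00 ± 1.03 and −6.51 ± 1.29. The rule also took in NHERF1 and NHERF2, scaffold proteins named after the sodium-proton exchanger they regulate. NHERF2 averaged 1.68 ± 0.15 in summer and 1.96 ± 0.34 in autumn, and NHERF1 averaged −4.33 ± 0.54 and −4.81 ± 0.20.

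Summer against autumn on the non-CL side gave 0 genes past the threshold in limma among 105 members and 12383 probes (0.0%). SLC43A3 was the only member with an unadjusted p under 0.05, at 0.65 ± 0.29 (unadjusted p = 0.0477, adjusted p = 1.0 in limma), which is 1 of 105 higher against 0.622% of all probes, and 0 were lower against 0.501%. On slide 1 alone the value was −0.09. No member had its summer arrays all above the autumn arrays (background 2.75%), and SLC39A14 was the 1 member with all of them below (background 3.5%). SLC5A1 had the largest difference of the 105 genes, at 0.91 ± 0.70 (unadjusted p = 0.221 in limma), and it ranged from 0.48 to 1.64 when any 1 array was left out. SLC40A1 differed by 0.33 ± 0.25, which was 0.12 without non-CL-side summer replicate 2 and 0.60 without replicate 1 of that group. SLC25A22, a mitochondrial glutamate carrier, differed by −0.33 ± 0.17 and SLC25A1, the citrate carrier, by −0.34 ± 0.20, which were −0.22 and −0.11 without non-CL-side summer replicate 1. The median of the 105 genes was 0.03, against a value close to 0 for all probes, and 59 of 105 lay above 0, against 49.9%.

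Over both sides, 2 of 105 genes were higher in summer at an unadjusted p under 0.05 (background 2.7%) and 3 were lower (background 1.32%), and none passed the threshold (0.0% of all probes). By the means of same-numbered horns, 5 genes lay wholly above autumn (background 5.51%) and 6 wholly below (background 5.16%), and 62 of 105 were above 0 (background 52.7%). The higher genes were SLC43A3, at 0.80 ± 0.20 with an unadjusted p of 0.00639, and SLC6A14, which was 2.14-fold higher. The lower genes were SLC5A2, at −0.54 ± 0.19, SLC22A17, at −0.42 ± 0.16, and SLC15A1. Without the dim array, SLC6A14 was at 0.46 and SLC22A17 at −0.28, and neither kept an unadjusted p under 0.05, while SLC43A3 was at 0.88 with an unadjusted p of 0.00694. SLC6A14 was at 0.72 without CL-side summer replicate 1 and at 1.74 without non-CL-side summer replicate 2. With replicate numbers as a block, 6 genes were higher at an unadjusted p under 0.05, against 4.20% of all probes, and 1 was lower. For SLC43A3 the alternative background correction gave 0.34, and the authors' table of log2 values gave −0.05.

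Between the sides in summer, 3 of 105 genes were higher on the CL side at an unadjusted p under 0.05 (background 0.977%) and 0 were lower (background 0.436%). None passed the threshold in limma (0.0% of probes), and the smallest adjusted p of a member was 0.984. On the CL side 55 of 105 genes had the higher mean (background 48.9%), 4 lay wholly above the non-CL side (background 1.92%) and 2 wholly below (background 1.79%). This comparison shares the CL-side summer arrays with the season comparison of the CL side. SLC6A14 was 4.8-fold higher on the CL side, with a difference of 2.26 ± 0.64 (unadjusted p = 0.00518), and 2.65-fold without the dim array.
SLC4A4, the electrogenic sodium-bicarbonate cotransporter, had −3.47, −1.67 and −4.47 on the CL side in summer against −4.90, −4.71 and −5.23 on the non-CL side. The sides did not overlap, and the difference was 1.74 ± 0.55 (unadjusted p = 0.00943), or 0.97 without the dim array with an unadjusted p of 0.0122. In autumn the gene had −4.00, −3.92 and −4.52 on the CL side against −4.78, −5.25 and −5.32 on the non-CL side, again with no overlap, and a difference of 0.97 ± 0.55 (unadjusted p = 0.107). All 6 CL-side arrays thus lay above all 6 non-CL-side arrays. A second probe of the gene, with a mean level of −7.01, failed the filter. These values therefore rest on the brighter probe alone, which was named by its description. The authors' table of log2 values gave 1.52 in summer and 0.83 in autumn.
SLC26A4 was the third gene counted, and its probe passed the filter only through the CL side in summer, so the count of 3 is no support for it. Its mean level was 2.07 higher there than on the non-CL side in summer, where 1 of 3 arrays stood well above background, and 0.66 higher without the dim array.

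SLC11A1, a phagocyte metal transporter, was higher on the CL side in both seasons. It had −3.98, −3.71 and −3.06 on the CL side in summer against −4.04, −4.39 and −4.37 on the non-CL side, a difference of 0.68 ± 0.35. In autumn it had −3.22, −3.56 and −4.51 against −3.97, −4.69 and −4.55, a difference of 0.64 ± 0.35. It was higher on the CL side in all 6 same-numbered pairs of horns, as were SLC4A4 and SLC1A5, while no member was lower in all 6. The share of all kept probes with such a pattern was not counted, so these counts are a description only. With season and number as a replicate block, SLC11A1 had an unadjusted p of 0.0533 in summer and 0.0651 in autumn (adjusted p = 0.81 and 0.99 in limma). Its difference was 0.42 in summer without CL-side replicate 3, and in autumn 0.37 without CL-side replicate 1 and 1.01 without CL-side replicate 3. Of the members with lower levels on the CL side in summer, SLC5A3 (−1.24 ± 0.78), SLC1A1 (−0.93 ± 0.60) and SLC7A5 (−0.81 ± 0.54) came to −0.23, −0.29 and −0.27 without the dim array. SLC7A5 was at −1.22 without CL-side summer replicate 3 and at −0.52 without non-CL-side summer replicate 3. SLC27A4, a fatty acid transport protein, was at −0.32 ± 0.23, or −0.18 without CL-side summer replicate 1 and −0.51 without replicate 3 of that group.

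Between the sides in autumn, 1 of 105 genes was lower on the CL side at an unadjusted p under 0.05 (background 1.06%), and 0 were higher (background 0.8%). No member passed the threshold (0.0% of probes). On the CL side 44 of 105 had the higher mean (background 42.6%), 2 lay wholly above (background 2.37%) and 4 wholly below the non-CL side (background 5.66%). The gene was SLC16A13, of the monocarboxylate transporter family, with −7.28, −6.28 and −6.43 on the CL side in autumn against −5.97, −5.74 and −6.08 on the non-CL side. Its difference of −0.73 ± 0.28 (unadjusted p = 0.0249) was −0.42 without CL-side autumn replicate 1 and 0.34 in the authors' table of log2 values. SLC34A2 (−0.77 ± 0.38) and SLC5A6 (−0.60 ± 0.30), both faint, also turned sign there, at 0.27 and 0.17, and SLC34A2 was at −0.32 without non-CL-side autumn replicate 2. With season and number as a replicate block, 5 genes were lower on the CL side at an unadjusted p under 0.05 (SLC22A16, SLC5A6, SLC34A2, SLC16A13 and SLC28A1), against 2.70% of all probes, and the smallest adjusted p was 0.99 in limma.
SLC22A16, an organic cation and carnitine transporter, was 0.502-fold as high on the CL side, with an unadjusted p of 0.0579, and its log2 difference was −0.46 without CL-side autumn replicate 2. SLC7A11, the cystine and glutamate exchanger, gave 0.74 ± 0.45, which was 0.27 without CL-side autumn replicate 2, 1.20 without replicate 3 of that group and 0.45 on slide 1 alone. SLC2A6 gave 0.41 ± 0.24, which was 0.20 without CL-side autumn replicate 2 and −0.01 on slide 1 alone.

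Whether the season difference itself differed between the sides was tested as an interaction. No member passed the threshold (0.0% of probes), and the smallest adjusted p was 0.999. At an unadjusted p under 0.05, 2 of 105 genes had a higher value on the CL side (background 1.26%) and 0 a lower one (background 0.622%). The 2 genes were SLC6A14, at 2.16 ± 0.91 (unadjusted p = 0.0381 in limma), and SLC38A3, at 1.04 ± 0.45 (unadjusted p = 0.0435), which were 1.30 and 0.70 without the dim array. SLC34A2 was at 1.04 ± 0.53 and SLC13A3 at 0.54 ± 0.27, and in the authors' table of log2 values they were at 0.09 and 0.04. SLC34A2 was at 0.58 without non-CL-side autumn replicate 2, and SLC13A3 at 0.35 without the dim array. With season and number as a replicate block, 9 genes had a higher value on the CL side at an unadjusted p under 0.05 and 0 a lower one (3.19% and 1.24% of all probes). Over all members, 67 of 105 lay above 0 (background 53.9%). On the negative side lay SLC7A11 (−0.96 ± 0.64), SLC22A17 (−0.54 ± 0.34), SLC2A6 (−0.49 ± 0.34) and SLC39A7, a zinc transporter of the secretory pathway (−0.28 ± 0.19). SLC7A11 was at −0.54, SLC22A17 at −0.30 and SLC2A6 at −0.27 without the dim array. Without CL-side autumn replicate 2 SLC7A11 was at −0.49 and SLC2A6 at −0.28, and on slide 1 alone SLC22A17 was at −0.05 and SLC2A6 at −0.07.

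A list of 37 transporters known from the uterus of ruminants, which overlaps the classes above, had 25 members among the 105 genes. For season on the CL side, 19 of these were higher and 6 lower (53.0% of all probes were higher), their median was 0.35, and 4 were higher at an unadjusted p under 0.05 (background 6.37%). Without the dim array 17 were higher, and 2 of the 4, SLC6A14 and SLC26A4, kept that p (background 3.42%). SLC26A4 and SLC5A11, both among the 25, passed the filter only through the CL side in summer. Their direction there follows from the filter, so counting them is no support. On the non-CL side 21 of the 25 were higher and 4 lower, with a median of 0.17 and none at that p, where 49.9% of all probes were higher. Of the 31 other membrane transport genes measured, such as pumps, channels and aquaporins, 21 were higher and 10 lower in summer on the CL side, with 6 higher at an unadjusted p under 0.05 and none past the threshold (background 53.0% higher and 6.37% at that p). When the dim array was left out, 22 were higher (background 53.7%), and 3 were higher at that p, 2 of them among the 6 (background 3.42%). AQP3 and AQP5, water channels of secretory epithelia, had the smallest p, with differences of 2.60 ± 0.82 and 2.66 ± 0.91, which were 1.34 and 1.30 without the dim array. In the opposite horn, ABCB1, a drug efflux pump, was at 1.20 ± 0.59 (unadjusted p = 0.0669 in limma).
Of 18 genes that regulate solute carriers and are not themselves members, apart from the scaffold NHERF1 and the heavy chain SLC3A2, 15 had a higher summer level on the CL side. Of all probes, 53.0% were higher there, and 6.37% were higher at an unadjusted p under 0.05. ARHGDIA was the only 1 of the 18 at that p, at 0.90 ± 0.31, a share near the background. Without the dim array it was at 0.77 with an unadjusted p of 0.0518 in limma.

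**Figure D5:**
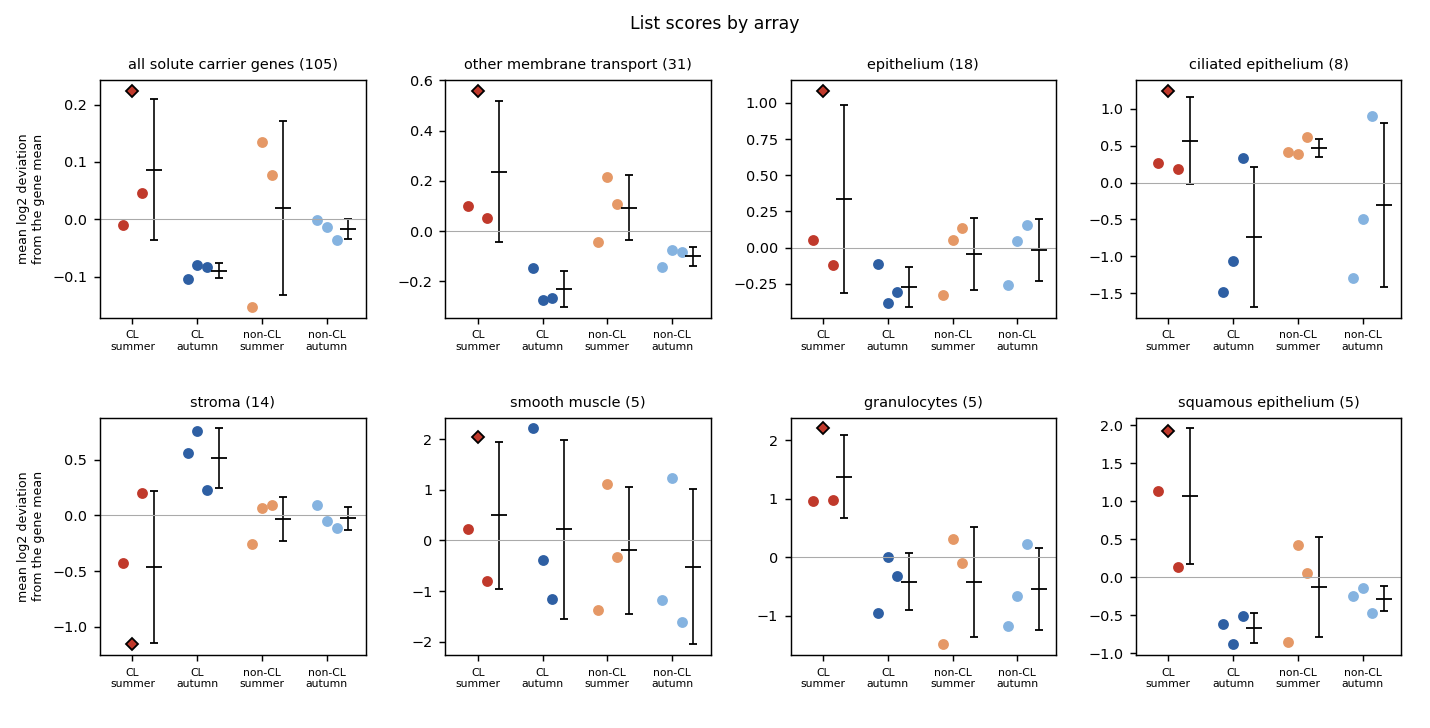
Mean deviation of the genes of a list from their 12-array means (vertical axis, log2 units) on each array by group, with mean and SD (n = 3) and a black-edged diamond for the dim CL-side summer array; the number of genes is in brackets. The score of the 105 solute carrier genes stayed between −0.15 and 0.22 on every array, while the epithelial and stromal scores of the dim array were 1.08 and −1.16.

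The mean level of the 105 genes varied little between arrays. Their mean deviation was −0.01, 0.22 and 0.05 on the CL side in summer, −0.15, 0.13 and 0.08 on the non-CL side in summer, and between −0.10 and 0.00 on the 6 autumn arrays. The 3 CL-side autumn arrays were all lower than the 3 CL-side summer arrays. Their score was −0.10, −0.08 and −0.08. The highest value belonged to the dim array. The 31 other membrane transport genes had the same order, with a lowest CL-side summer score of 0.05 and a highest CL-side autumn score of −0.15. So had the 20 listed regulators of solute carriers, at 0.04 and −0.07. A score of all probes was not made, so this order is a description only.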

How the data were processed

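Endometrial biopsies were measured on 12 one-colour Agilent arrays in 4 groups of 3, taken from the sample titles. The deposited scanner files hold, per the file headers, a spot intensity processed by Feature Extraction 9.5.1.1 (background-subtracted, not scaled between arrays). The authors also deposited log2 values, with scale, centring and the treatment of low signals unstated, used as an alternative. Processed signals were divided by each array's 75th percentile, floored at −7.28 on the log2 scale (an addition to the design, since signals at or below 0 have no logarithm) and 466 flagged values were set to missing. Tests used limma 3.58.1 (R 4.3.3) on the kept probes (4 group means, 8 residual degrees of freedom; same-numbered horns averaged for both sides, 4 degrees), two-sided, Benjamini-Hochberg over all kept probes, threshold 0.05. A fold against a group with no array well above background is a bound against the floor. The script was tested on simulated data. Array number limits precision.

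The members and lists were chosen with earlier results of these data known. Named were the 4 members per direction and comparison with the smallest p, the 2 brightest per class, a list of uterine transporters, any past the threshold, and the genes of smallest p of the other lists; the genes named for their range, absent signal or non-overlap were chosen after their values were seen. Symbols came from the files' accessions and descriptions and the reference gene table; 33 of 134 probes were named by description. The probe counted as SLC25A34 has that gene's accession but the description of SLC25A35. Coordinates are not used here. The values of 1 gene are not reported here, though it is counted. Same-numbered horns correlated in their deviations from the group means (0.15 to 0.52 in 6 pairs), as did same-numbered arrays of the seasons (0.11 to 0.35). The labels do not say that the numbers pair the samples, and these correlations do not settle it. In autumn, replicate 1 of both sides lay on slide 1 and replicates 2 and 3 on slide 2, so number and slide partly coincide there. Alternatives were background correction, normalization, the authors' values, filters, slide, replicate blocks, mean of a gene's probes and leaving out each array.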

Additional observations from a re-analysis of the deposited data

How the results depend on the processing

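No solute carrier gene passed an adjusted p of 0.05 in limma under any of the 22 alternatives, and the smallest adjusted p of a member was 0.0827, for the CL-side season comparison. The probes past the threshold over the whole array numbered 0 with all arrays. When any 1 array was left out they ranged from 0 to 7 (lowest 0, highest 7) for season on the CL side, 0 to 1 for side in summer, 0 to 6 for side in autumn and 0 to 1 for the interaction, and slide 1 alone gave 1 for season on the non-CL side. The median of the solute carrier genes in the authors' log2 values was −0.030 for season on the CL side, −0.038 over both sides, 0.17 for side in autumn and −0.046 for the interaction. For side in autumn it was −0.13 on slide 1 alone, and for the interaction it ranged from 0.026 to 0.18 when any 1 array was left out. In the authors' log2 values single genes changed sign: SLC13A3 at −0.0066, SLC34A1 at −0.015, SLC34A2 at −0.030, SLC38A3 at −0.041 and SLC43A3 at −0.11 for season on the CL side, SLC43A3 at −0.046 over both sides, and SLC16A13 at 0.34, SLC34A2 at 0.27 and SLC5A6 at 0.17 for side in autumn. The cause was not tested. SLC2A5 was at −0.13 with the slide as a block and at −0.0053 on slide 1 alone, and SLC43A3 at −0.085 there, for season on the non-CL side. SLC2A6 was at −0.0066 on slide 1 alone for side in autumn. SLC2A1 for season on the non-CL side ranged from −0.069 to 0.83 when any 1 array was left out, the lowest without non-CL-side autumn replicate 2. The replicate block, which pairs same-numbered samples, left 0 members past the threshold and changed no call. Genes near the floor are limited by signal over background.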
